A study of Mus musculus with 2 samples.

Results

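Among the 5326 peaks of the deposited Cut&Tag peak list from mouse hippocampus, 560 (10.5%, 95% exact binomial interval 9.70% to 11.4%) lay inside very long protein-coding genes and far from any gene end. These were the peaks that overlapped a protein-coding gene of at least 300 kb and kept more than 3 kb from each end of every gene in the RefSeq table of GRCm38, and a peak that overlapped several such genes was counted for the longest. Cut&Tag uses an antibody to bring a Tn5 transposase to a protein on chromatin, and the fragments cut there are sequenced in pairs. In this study 1 library was made with a rabbit anti-Smad4 antibody and 1 with IgG as control, both from hippocampal nuclei. The study's methods name 6-month-old males of the APP/PS1 line, an Alzheimer's disease model, and wild-type littermates matched for age. Some of its measurements used mice of other ages. Which genotype, age and treatment the Cut&Tag nuclei came from is not given in the sources used here. The single list analysed here belongs to the record of the IgG library and its name states no antibody, so the peaks are described without an antibody and the antibodies are not compared. The study treats its Cut&Tag peaks as those of Smad4, and the total it reports for them is close to the length of this list. Which antibody the list belongs to was not tested. With 1 list there is no replicate, every interval covers counting error only, and read totals were not used here.

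The longest genes of mammals owe most of their length to introns, and many of them encode proteins of neurons, such as adhesion molecules, receptors, channels and scaffolds of the synapse. Introns of such genes can hold enhancers, and the start sites of shorter transcripts of the same gene. Smad4 is the common partner of the receptor-activated Smads in TGF-β and BMP signalling, and Smad proteins can bind the short DNA word CAGAC and its reverse complement GTCTG. In the hippocampus, long genes for glutamate receptors, adhesion proteins and scaffolds take part in building and adjusting synapses.

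A few of the 560 peaks lay beside a transcript start inside a long gene, and most did not. The RefSeq promoter table gave a strand for 425 of the 557 long genes, and these held 424 of the peaks and 254 transcript starts, in 166 genes, that were inside the gene. Positions within 1 kb of a listed start made up 0.206% of the interior of these genes and held 4 peak summits, of which 3 had a pileup (the number of fragments stacked at the summit) of at least 3. The density there was 8.36 peaks per Mb (95% exact Poisson interval 2.28 to 21.4), against 1.82 per Mb (1.65 to 2.00) in the rest of the interior, a ratio of 4.60 (exact conditional interval 1.25 to 11.9). The ratio was 6.94 (2.53 to 15.2; 6 peaks) with the whole peak in place of its summit, 4.03 (1.61 to 8.38; 7 peaks) within 2 kb and 1.90 (1.05 to 3.17; 15 peaks) within 5 kb, and with 1 peak fewer it was 3.45 (0.709 to 10.2), an interval that includes 1. This comparison was chosen after the positions of the peaks had been seen.

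The 300 bases around a start, from 250 before it to 50 after it, are printed below for 3 of the 4 starts, Robo2 because its window is the only one of the 4 that a peak reached, and Schip1 and Lsamp because they lay beside the peaks with the highest pileups of the 4. The Schip1 and Lsamp windows lie wholly outside their peaks. They come from RefSeq (GRCm38.p6), 5′ to 3′ on the strand of the transcript. In the Robo2 window, chr16:74411776-74412075 on the minus strand, the capitals mark bases 1 to 163, which lay inside a peak. In the Schip1 window, chr3:68572118-68572417 on the plus strand, the capitals mark CAGAC or GTCTG. The Lsamp window, chr16:41532576-41532875 on the plus strand, holds neither word and has no capitals.
Robo2: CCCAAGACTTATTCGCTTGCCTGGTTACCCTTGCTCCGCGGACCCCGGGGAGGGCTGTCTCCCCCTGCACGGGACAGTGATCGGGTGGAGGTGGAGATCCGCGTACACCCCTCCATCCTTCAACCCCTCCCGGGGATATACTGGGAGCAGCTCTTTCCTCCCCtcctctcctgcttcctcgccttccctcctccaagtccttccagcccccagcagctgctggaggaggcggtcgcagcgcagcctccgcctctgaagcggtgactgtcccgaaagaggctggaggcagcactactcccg
Schip1: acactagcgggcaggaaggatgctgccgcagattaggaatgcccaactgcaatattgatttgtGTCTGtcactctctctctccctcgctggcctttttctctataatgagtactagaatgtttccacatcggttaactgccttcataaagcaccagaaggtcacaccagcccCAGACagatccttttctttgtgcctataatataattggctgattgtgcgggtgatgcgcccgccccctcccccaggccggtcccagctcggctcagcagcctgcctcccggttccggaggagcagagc
Lsamp: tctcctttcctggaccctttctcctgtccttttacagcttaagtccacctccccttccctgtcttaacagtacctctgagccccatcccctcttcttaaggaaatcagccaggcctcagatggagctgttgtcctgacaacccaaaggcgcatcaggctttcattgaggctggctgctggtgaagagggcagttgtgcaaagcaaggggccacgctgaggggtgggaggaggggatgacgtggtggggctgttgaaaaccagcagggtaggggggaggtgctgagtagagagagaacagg

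Robo2 encodes a receptor for Slit proteins in axon guidance, and its peak at chr16:74411913-74412133 had its summit 198 bp upstream of the start of a shorter Robo2 transcript, with a pileup of 2. Schip1 encodes a protein that interacts with schwannomin and is itself a long gene, within the longer gene Iqschfp. The transcript start described here lay inside both genes and was not the end of Schip1. The peak there, chr3:68572645-68572893, had a pileup of 5 and its summit 296 bp downstream of the start. Lsamp encodes an adhesion protein anchored to the neuronal membrane, and its peak at chr16:41533026-41533267 had a pileup of 4 and its summit 327 bp downstream of an internal start. The other peak of this kind, chr6:77241613-77242106, lay in Ctnna2, the gene of the neuronal α-catenin, and also inside the synaptic adhesion gene Lrrtm1. Its summit was 617 bp upstream of an internal start of Lrrtm1, with a pileup of 3. Searched on both strands, CAGAC occurred 2 times in the Schip1 window and in none of the windows of the other 3 starts, whereas 49.6% of 32851 promoter windows of this length held it. The letters GGCGC were in the Schip1 and Lsamp windows and in 36.9% of all windows. The longer word GTCTAGAC, which contains GTCT and AGAC, was in none of the 4 and in 0.213% of all windows. These matches are descriptions of the letters in the windows.

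The 560 peaks were spread thinly over many genes. Of the 557 protein-coding genes of at least 300 kb, 328 (58.9%, 54.7% to 63.0%) held at least 1 of them and 229 had none assigned. At the rate of the whole class, 1.87 peaks per Mb, applied to the interior of each gene, 231 genes would hold none. Of the 229, 3 lay so far within longer genes that no interior was counted for them, among them Schip1, whose peak described above was assigned to Iqschfp. Of all 10755 protein-coding genes with at least 10 kb of eligible interior, 14.6% held at least 1 interior peak, and the longer a gene was, the more interior it had in which a peak could fall. Among the long genes, 187 held 1 peak, 87 held 2, 31 held 3, 14 held 4, 4 held 5 and 5 held 6. The 23 genes with at least 4 peaks together held 106 of the 560. Across the 557 genes, the number of peaks and the length of the eligible interior had a Spearman correlation of 0.25, given as a description since all points come from 1 list.

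**Figure D1:**
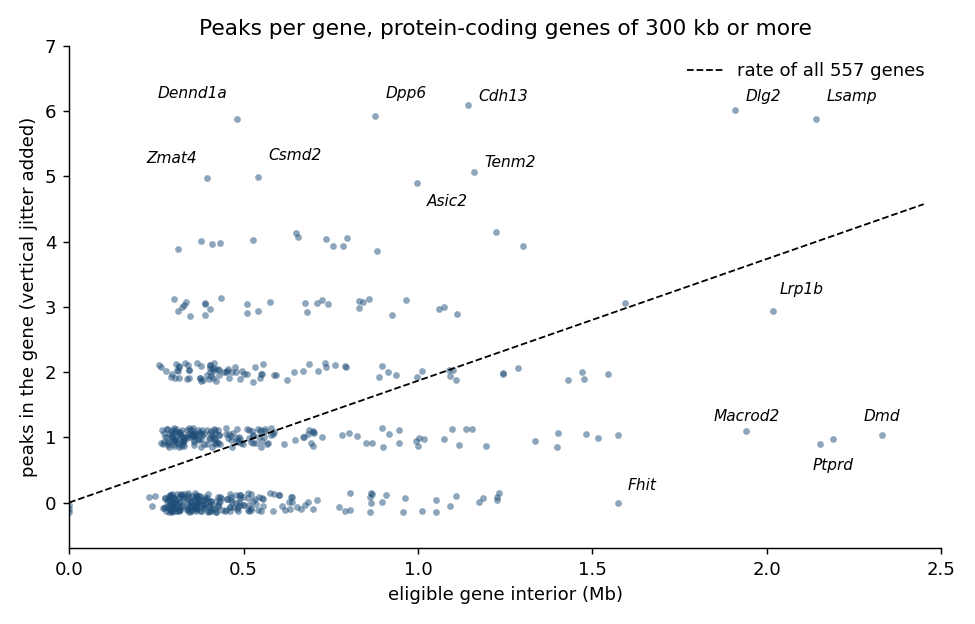
Number of peaks in each of the 557 protein-coding genes of at least 300 kb (points, with vertical jitter) against the eligible interior of the gene in Mb, with the rate of the whole class, 1.87 peaks per Mb, as a dashed line. Dennd1a, Dpp6, Cdh13, Dlg2 and Lsamp have 6 peaks each, and Dmd, the longest gene, has 1.

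The genes with 6 peaks were Dennd1a, Dpp6, Cdh13, Dlg2 and Lsamp. Dennd1a, which encodes an exchange factor for the GTPase Rab35 in membrane traffic, was the shortest of them (chr2:37798990-38287410, 488 kb) and had 12.4 peaks per Mb (95% exact Poisson interval 4.57 to 27.1). Its peaks had pileups of 2, 2, 2, 2, 4 and 3 from the low to the high coordinate. Lsamp had 2.80 peaks per Mb (1.03 to 6.10) over 2197 kb. Its interval overlapped that of Dennd1a, whose density was the higher of the 2, and the difference between them was not tested.

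Dpp6 encodes a membrane partner of A-type potassium channels and had 6.85 peaks per Mb (2.51 to 14.9) over 910 kb. The strongest peak of Dpp6, chr5:27185150-27185393, had a pileup of 9, the next 5, and the other 4 peaks a pileup of 2. Cdh13 encodes a cadherin without a cytoplasmic domain, and its 6 peaks over 1185 kb had pileups of 3, 3, 2, 2, 4 and 2. Dlg2 encodes PSD-93, a scaffold of the postsynaptic density. Its 6 peaks over 1973 kb had pileups of 2, 2, 2, 5, 12 and 2, and the strongest of them lay toward the 3′ end of the gene.

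The 4 genes with 5 peaks were Zmat4, a zinc finger gene, Csmd2, a gene of a large membrane protein with complement-like domains, Asic2, a gene of a proton-gated sodium channel, and Tenm2, a gene of a teneurin that joins synaptic membranes. Zmat4 (416 kb) had 12.6 peaks per Mb (4.09 to 29.4) and Csmd2 (581 kb) had 9.25. Asic2 and Tenm2 were longer, with 5.02 and 4.31 peaks per Mb. All 5 peaks of Tenm2 had a pileup of 2, the lowest in the list. Among the 14 genes with 4 peaks, the shortest were Gse1 (353 kb), Grik4, Cacna1d, Gpr158, which encodes an orphan G protein-coupled receptor, Rad51b, a gene of homologous recombination (551 kb), and Ppargc1a, which encodes the coactivator PGC-1α of mitochondrial biogenesis (662 kb).

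**Figure D2:**
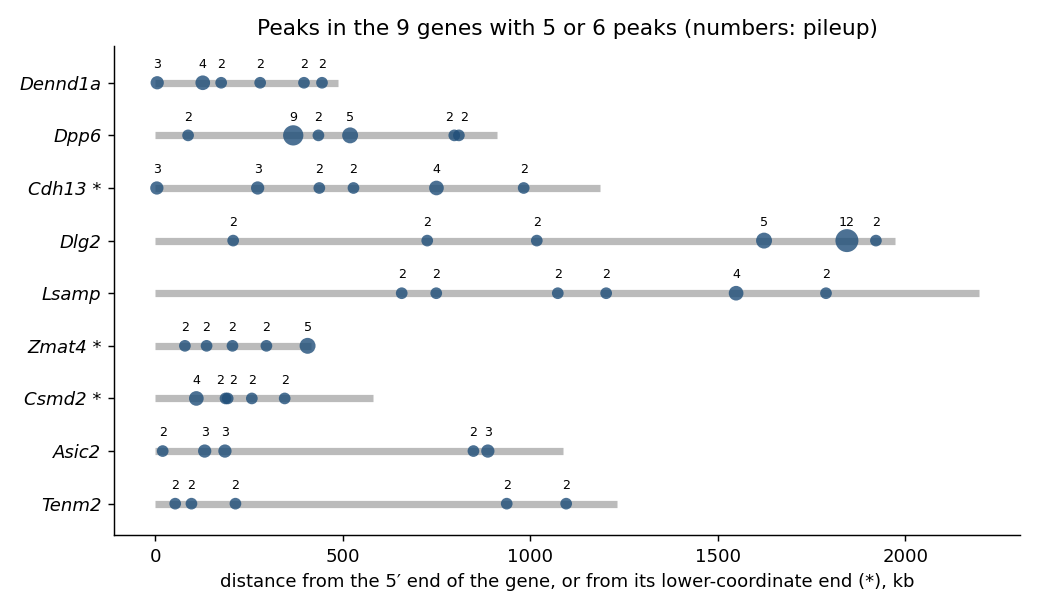
Positions of the peaks along the 9 genes with 5 or 6 peaks, in kb from the 5′ end of the gene or, for genes marked with an asterisk, whose strand was not in the table, from the end with the lower coordinate. Grey bars are the genes to scale, points are peaks sized by pileup, and numbers are pileups. The peak with a pileup of 12 in Dlg2 and that with 9 in Dpp6 stand out, and most others have a pileup of 2.

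No single gene was far enough from the pooled density to be called. Each of the 10755 genes was compared with the pooled rate of 2.35 peaks per Mb by an exact two-sided Poisson test with Benjamini-Hochberg adjustment, and 0 genes (0%) had an adjusted p of at most 0.05, with a smallest adjusted p of 1. At an unadjusted p of at most 0.05 there were 95 genes, 9 of them among the 554 long genes with enough interior. Of these, 8 were above the rate, namely Dennd1a, Zmat4, Gse1, Csmd2, Cacna1d, Grik4, Dpp6 and Gpr158, and Fhit was below it. With 1 to 6 peaks in a gene, the depth of the list allows only wide intervals. The densest genes with at least 3 peaks were Gse1 with 12.8 peaks per Mb (3.50 to 32.9), Zmat4, Dennd1a, Cacna1d with 10.6, Gabbr2 with 9.97, Grik4 with 9.78, Gria1 with 9.59 and Plcl1 with 9.29.

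The longest genes of the genome held between 0 and 6 peaks. Over all 557 genes, those without a peak had a median length of 414 kb and those with one 477 kb. Of the 10 longest protein-coding genes, Dmd, the gene of dystrophin (2390 kb), Ptprd, Cntnap2, Macrod2 and Csmd1 held 1 peak each. Dmd had 0.429 peaks per Mb (0.0109 to 2.39), and its peak at chrX:84784073-84784422 had a pileup of 3. Lrp1b and Nrxn3 held 3 each, and Dlg2 and Lsamp 6. Fhit, which encodes a diadenosine triphosphate hydrolase and spans 1612 kb, held none. The upper limit for Fhit was 2.35 peaks per Mb and its unadjusted p in the exact test was 0.0495. Among the 59 genes of at least 1 Mb, 13 held no peak, whereas 46 (78.0%) held at least 1.

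The peaks in long genes were mostly weak. By the pileup they were weaker than those of all shorter genes together, while the values of genes of 100 to 300 kb were closer to theirs. Of the 560 peaks, 340 (60.7%) had a pileup of 2, 97 a pileup of 3, 77 a pileup of 4 or 5, 36 a pileup of 6 to 9 and 10 a pileup of at least 10. A pair of value sets recurred, since 204 peaks (36.4%) shared a −log10 q of 1.57 and a fold enrichment of 2.88, and 126 (22.5%) shared 1.36 and 2.83. A pileup of at least 3 was found for 220 peaks in long genes (39.3%, 35.2% to 43.5%) and for 46.6% of all 5326 peaks. In genes under 300 kb the share was 47.2% (44.6% to 49.8%) of 1481 interior peaks, which gives a difference of -7.91 percentage points (Newcombe interval -12.6 to -3.09), and with a limit of 500 kb it was -13.4 (-19.1 to -7.37). By length class the share was 52.5% in genes under 50 kb, 51.5% at 50 to 100 kb, 42.0% at 100 to 200 kb and 41.1% at 200 to 300 kb, then 45.7% at 300 to 500 kb, 31.8% at 500 to 1000 kb and 37% in genes of at least 1000 kb. The highest shares were thus in genes under 100 kb, and differences between single length classes were not tested. The share with a q-value of at most 0.01 was 35.7% in long genes, 39.4% in shorter genes and 38.6% over all peaks, and the difference of -3.72 points between the gene classes had an interval that includes 0 (-8.32 to 1.02). With the limit at 200 kb or at 500 kb in place of 300 kb, this difference was -5.20 (-9.44 to -0.886) or -9.24 points (-14.7 to -3.31), and neither interval includes 0. The share with a fold enrichment of at least 5 was 14.5%, against 17.0% in shorter genes and 17.1% over all peaks, with a difference of -2.55 points (-5.89 to 1.10), or -4.01 (-7.83 to 0.609) with a limit of 500 kb.

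Peaks near gene ends were stronger by all 3 measures. Of the 617 peaks that came within 1 kb of where protein-coding genes begin or end, 72.4% (68.7% to 75.9%) had a pileup of at least 3, and the peaks in long genes were 33.2 points below that share (difference -33.2, interval -38.4 to -27.7). The differences were -18.1 points (-23.6 to -12.4) for the q-value and -9.52 (-13.9 to -5.03) for the fold enrichment. For a pileup of at least 10 the shares were 1.79% in long genes and 1.46% near gene ends. That difference of 0.327 points had an interval that includes 0 (-1.20 to 1.95). The 1607 peaks outside genes and more than 3 kb from every gene end were close to those in long genes. Of them, 36.9% (34.5% to 39.3%) had a pileup of at least 3. The difference of 2.38 points (-2.24 to 7.10) had an interval that leaves room for a difference of either sign. The median width was 290.5 bp (193 to 771 bp) in long genes and 287 bp over the whole list.

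**Figure D3:**
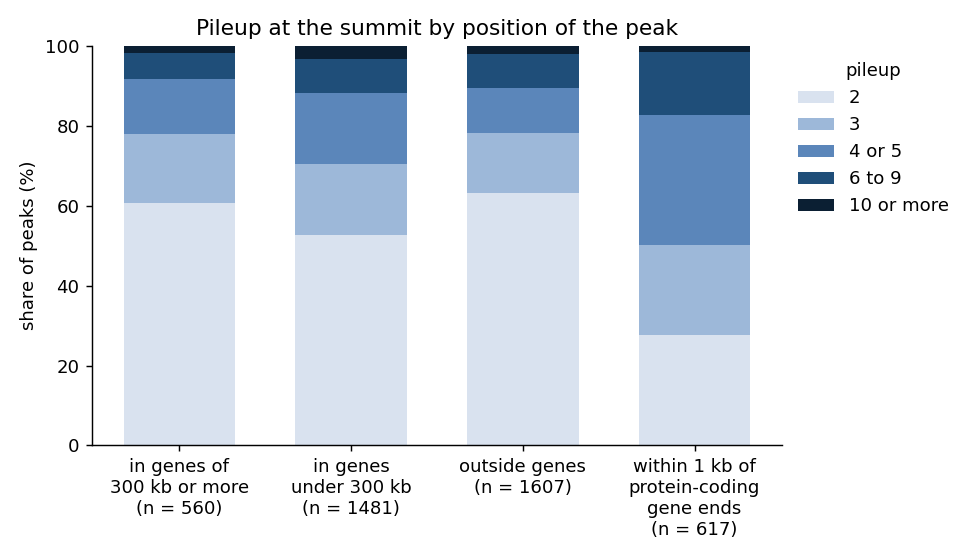
Share of peaks (%) with each pileup at the summit, for peaks in the interior of protein-coding genes of at least 300 kb, in the interior of those under 300 kb, outside genes, and within 1 kb of protein-coding gene ends. Peaks outside genes are those more than 3 kb from every gene end. A pileup of 2 makes up 60.7% of the peaks in long genes, and 72.4% of those near gene ends have a pileup of at least 3.

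A small number of the peaks in long genes were strong. A pileup of at least 10 was found for 1.79% of them (0.860% to 3.26%). The share was 3.17% in shorter genes and 2.74% over all peaks. The strongest was in Atrnl1, a relative of attractin, at chr19:58113323-58113584, with a pileup of 27, a fold enrichment of 17.2 and a −log10 q of 29.8, and it ranked 25 in the whole list. The next was in Camk1d, which encodes a calcium- and calmodulin-dependent kinase, at chr2:5379058-5379376, with a pileup of 19 and a −log10 q of 20.9. Below them, 8 further peaks had a −log10 q between 9.69 and 13.9. Rgs7, a regulator of G protein signalling (chr1:175189967-175190278), Fto, an RNA demethylase (chr8:91414952-91415360), and Dgki, a diacylglycerol kinase (chr6:37197515-37198039), each held a peak with a pileup of 13. The peak of Dlg2 at chr7:92320367-92320685 had 12 and lay 1844 kb from the 5′ end. Ptprn2, of the receptor phosphatase family, had a peak with a pileup of 11 at chr12:116982757-116983280. Mdga2, a membrane-anchored regulator of neuroligins, also had one with 11 (chr12:67059446-67059667). The last of the 10 were in Celf2, an RNA-binding splicing regulator (chr2:7128035-7128447, pileup 10), and Akap6, an anchor of protein kinase A (chr12:52929267-52929531, pileup 13). The ranks of these 10 in the whole list ran from 25 to 112, so the very highest peaks lay elsewhere.

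Per megabase of eligible sequence, peaks were less dense in long genes than in shorter ones. The density was 1.87 peaks per Mb (95% exact Poisson interval 1.72 to 2.03) over 299.9 Mb of interior of long genes and 2.62 (2.49 to 2.76) over 565.2 Mb in protein-coding genes under 300 kb, a ratio of 0.713 (exact conditional interval 0.645 to 0.786). The ratio was 0.593 (0.507 to 0.691) for peaks with a pileup of at least 3 and 0.819 (0.719 to 0.932) for those with a pileup of 2. Over whole genes, ends included in the length but not in the count of peaks, the densities were 1.76 and 2.02 per Mb. On 18 of the 20 chromosomes with long genes, their density was below that of shorter genes, and the exceptions were chromosomes 12 and 13, with ratios of 1.26 and 1.07. The ratio stratified by chromosome was 0.719 (0.652 to 0.793). Long genes were still denser in peaks than sequence outside genes and more than 3 kb from every gene end. That sequence held 1.24 per Mb (1.18 to 1.30, with assembly gaps not removed). The ratio of long genes to it was 1.50 (1.36 to 1.66).

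Within the long genes, the density was lower in the longer length classes. It was 2.25 per Mb (1.99 to 2.54; 265 peaks) in genes of 300 to 500 kb, 1.85 (1.60 to 2.13; 195 peaks) in those of 500 to 1000 kb and 1.30 (1.06 to 1.58; 100 peaks) in those of at least 1000 kb. The last was 0.579 (0.455 to 0.731) times the first. In genes under 300 kb the density showed no such order, with 2.56, 2.76, 2.56 and 2.62 per Mb from genes under 50 kb to those of 200 to 300 kb, and all 4 intervals overlapped. For peaks with a pileup of at least 3, the densities were 1.34 (1.16 to 1.54) and 1.42 per Mb (1.23 to 1.62) in the classes under 100 kb, 1.08 (0.927 to 1.24) and 1.08 (0.879 to 1.31) in those from 100 to 300 kb and 1.03 (0.852 to 1.23) at 300 to 500 kb. They were 0.588 (0.451 to 0.754) at 500 to 1000 kb and 0.482 (0.339 to 0.664) in genes of at least 1000 kb, both with intervals below those of the classes under 500 kb. The share of genes with at least 1 peak was higher in the longer classes, from 53.3% (176 of 330) at 300 to 500 kb to 63.1% (106 of 168) and 78.0% (46 of 59).

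**Figure D4:**
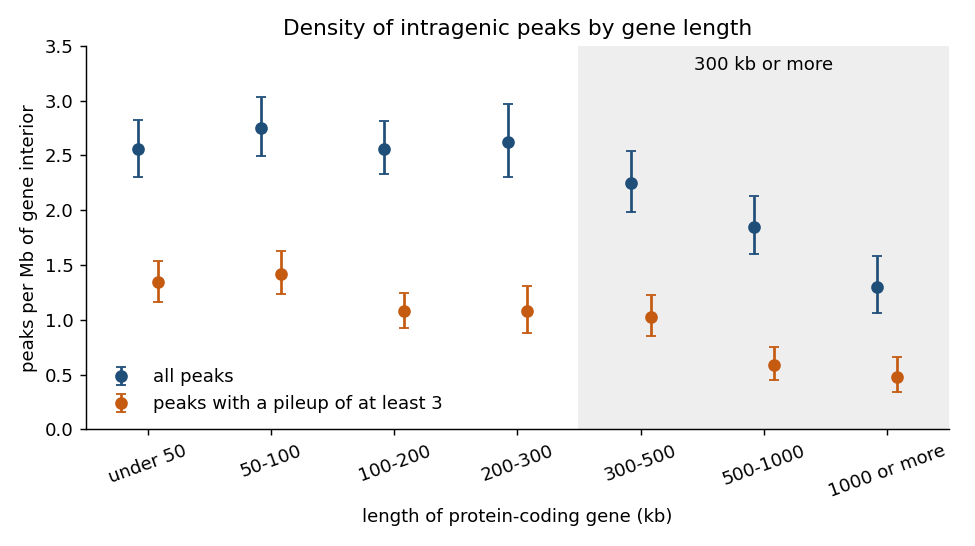
Peaks per Mb of eligible gene interior by length class of protein-coding genes in kb, for all peaks and for peaks with a pileup of at least 3, with 95% exact Poisson intervals. Shading marks genes of at least 300 kb, where the density of all peaks falls from 2.25 to 1.30 per Mb across the classes.

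Long genes on the X chromosome held few peaks. There were 6 peaks over 14.3 Mb of interior in 24 long genes there, 0.418 per Mb (0.154 to 0.911), and shorter genes of the X had 1.21 (0.817 to 1.73). The methods of the study describe its mice as male, so that each nucleus would hold a single X chromosome, and the part of this in the value was not tested. The highest density was on chromosome 11, with 2.80 per Mb (1.89 to 4.00), and no long gene lay on the Y chromosome. Without the X and Y chromosomes the ratio between long and shorter genes was 0.721.

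Peaks were spread along the whole length of the long genes. In the 425 genes with a known strand, the density was 1.96 per Mb in the first 20% of the gene from the 5′ end, then 1.57, 1.74, 1.88 and 2.01 in the following parts of the same size, with overlapping intervals. The first 20% over the rest gave a ratio of 1.09 (0.851 to 1.38), and the first 50 kb over the rest gave 1.18 (0.827 to 1.63). For peaks with a pileup of at least 3 the latter was 1.49 (0.872 to 2.41), and all 3 intervals include 1. The last 50 kb over the rest gave 1.21 (0.852 to 1.67) for all peaks, an interval that also includes 1. By distance, the density of all peaks was 2.12 per Mb at 3 to 50 kb from the 5′ end, then 2.07, 1.92 and 1.85, and 1.64 beyond 400 kb. For peaks with a pileup of at least 3 the same steps gave 1.01 (0.607 to 1.57), 0.984, 0.740, 0.703 and 0.541 (0.392 to 0.729). These values were lower at each step away from the 5′ end. The intervals of the first and the last step overlapped, which is no test of their difference, and no ratio between them was taken. Over the same steps from the 3′ end this density was 0.742, 0.844, 0.768, 0.852 and 0.490 (0.349 to 0.670), with no such order. The last step from either end is reached only by genes longer than 400 kb. The median peak was 282 kb from the 5′ end of its gene, at 0.506 of the length, and 53.9 kb from the nearest end of any gene. Exons and introns were not told apart here.

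**Figure D5:**
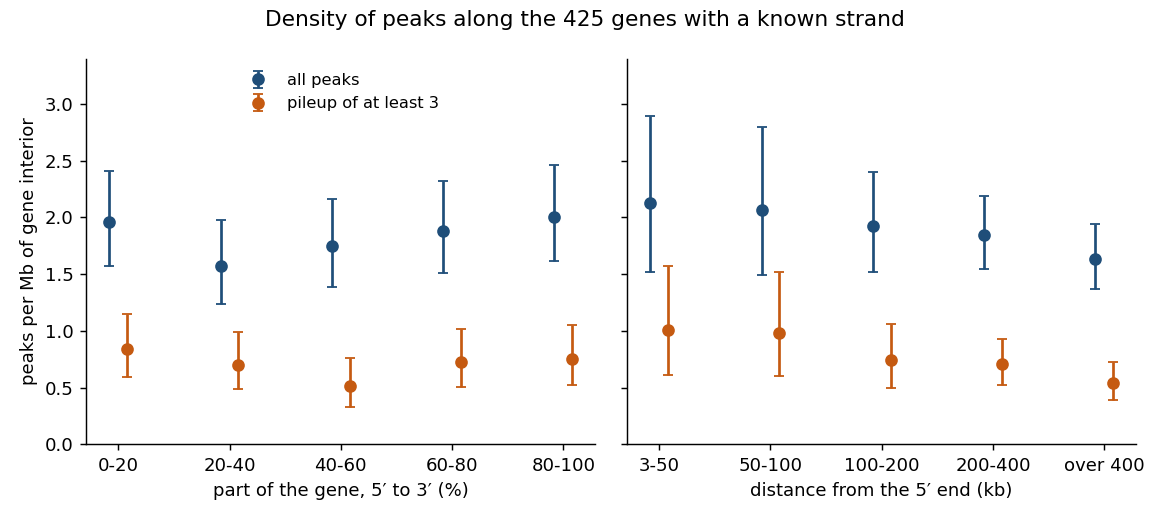
Peaks per Mb of eligible interior along the 425 long genes with a known strand, in steps of 20% of the gene from 5′ to 3′ (left) and by distance from the 5′ end (right, kb), for all peaks and for those with a pileup of at least 3, with 95% exact Poisson intervals. Densities of all peaks lie between 1.57 and 2.12 per Mb and their intervals overlap.

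Neighbouring peaks of a gene were mostly more than 50 kb apart, and the gaps were not compared with those of peaks placed at random. There were 232 pairs of neighbours in the same gene, with a median gap of 148 kb (5.54 to 853 kb), of which 35 were closer than 50 kb and 5 closer than 10 kb. The 5 close pairs were in Csmd2 (5544 bp), Ttc28 (5950 bp), Gabbr2 (8255 bp), Snx29 (9538 bp) and Grik4 (9623 bp), of which Ttc28 and Snx29 are named only for these gaps, after their values were seen.

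By role, the list with the most long genes was that of cell adhesion molecules and synapse organisers. Such proteins connect the membranes of 2 neurons or shape the contact. This list was also the longest as written, with 64 genes. Of its 40 long members, 27 (67.5%) held a peak, compared with 58.9% of all long genes, and its 57 peaks amounted to 1.61 per Mb (1.22 to 2.09), compared with 1.87 for all. Lsamp held 6 peaks, Csmd2 and Tenm2 5 each, and Mdga2 3. Nrxn3, a presynaptic neurexin, held 3 peaks with pileups of 3, 4 and 4. The longest members with none were Il1rapl2 (1278 kb), Cntn5, Csmd3 and Opcml, so genes of more than 1 Mb stood at both ends of the group. Of the 14 cadherins and catenins, families of cell adhesion proteins and their cytoplasmic partners, 10 held 20 peaks, 1.72 per Mb (1.05 to 2.65). After Cdh13 with 6 came Ctnna2 with 3, while Cdh18, the longest without a peak, spans 929 kb.

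Glutamate and GABA receptor genes had the highest point estimate of density among the groups with more than 2 long genes. Of 16 long genes, 12 (75%) held 27 peaks, 2.95 per Mb (1.94 to 4.29), beside 1.87 in all long genes and 2.25 in all genes of 300 to 500 kb. The groups were chosen with results of these data known, and no test was made of this. Grik4, a high-affinity kainate receptor subunit, held 4 peaks, at chr9:42619306-42619641, chr9:42667689-42668126, chr9:42878287-42878634 and chr9:42888258-42888746, with pileups of 5, 3, 2 and 2. Gria1, the AMPA receptor subunit GluA1, held 3 with pileups of 2, 2 and 3, and Gabbr2, a subunit of the GABA-B receptor, held 3 with a pileup of 2 each. Grm8, a presynaptic metabotropic glutamate receptor, held 3 with pileups of 6, 2 and 3. In contrast, Grik2, another kainate receptor subunit (696 kb), Grm5 (551 kb), Grik1 and Gria4 held none. Of the 27 peaks, 11 had a pileup of at least 3.

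Ion channel genes and their partners followed with 19 of 32 long genes (59.4%), 38 peaks and 2.31 per Mb (1.63 to 3.17), without Asic2, which the list does not hold. Dpp6 held 6. Cacna1d, the pore of an L-type calcium channel, held 4 with pileups of 2, 2, 2 and 3, and the first of these, chr14:30043593-30043914, lay 3652 bp from an end of the gene, near the limit of 3 kb. Trpm3 held 4, and Kcnma1, the gene of a calcium-activated potassium channel, held 3. The longest of the channel genes without a peak were Kcnip4 (1136 kb) and Cacna1c (610 kb), the latter encoding the pore of another L-type calcium channel. The scaffolds of the synapse, counted with neuregulins and their receptor, had peaks in 11 of 19 long genes (57.9%), with 24 peaks and 1.71 per Mb (1.09 to 2.54). Dlg2 held 6, Dlgap1, which binds it in the postsynaptic density, 4, and Grip1, an AMPA receptor partner, 3. Nrg3, Nrg1 and Erbb4, 2 growth factors and their receptor, each span more than 1 Mb and held none.

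Axon guidance genes had peaks in 8 of 16 long genes (50%), 14 in all or 1.47 per Mb (0.805 to 2.47). Robo1, a Slit receptor, held 3 with pileups of 7, 2 and 2, and its ligand gene Slit2 held 2. Sema6d and Sema3a, which encode semaphorins, were the longest with none. Receptor protein tyrosine phosphatases had peaks in 5 of 6 long genes, 10 in all or 1.71 per Mb (0.818 to 3.14), with 4 in Ptprn2 and 3 in Ptprt. Ptprd, the longest of them (2271 kb), held 1 with a pileup of 5, at chr4:76359873-76360080, and Ptprm (688 kb) held none.

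Among 25 long genes of transcription factors and RNA-binding proteins, 17 (68%) held 29 peaks, 1.99 per Mb (1.33 to 2.86). Sox5, a transcription factor of neuronal and cartilage development, held 4 with pileups of 2, 2, 2 and 5. Celf2 held 3 with pileups of 4, 10 and 2, Camta1, a calmodulin-binding transcription activator, held 3 with 7, 2 and 9, and Rora, a nuclear receptor, held 3 with 5, 2 and 9. Esrrg, an estrogen-related nuclear receptor (606 kb), was the longest of this group with none. Phosphodiesterases of cyclic nucleotides had 6 peaks in 4 of 7 long genes, 1.63 per Mb, with 2 each in Pde4d and Pde7b and none in Pde1c.

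Genes at common fragile sites, where chromosomes tend to break under replication stress, had peaks in 13 of 17 long genes (76.5%). They held 29 peaks, 1.39 per Mb (0.930 to 1.99), a lower density than that of all long genes by its point estimate, with an interval that includes 1.87. Dlg2, which is in this group and among the scaffolds, held 6, Lingo2 and Naaladl2 4 each, and Fhit and Immp2l none. Only 2 genes of the TGF-β and BMP pathway were at least 300 kb long. Bmpr1b, a type I BMP receptor, held 1 peak at chr3:142036348-142036750 with a pileup of 2, and Ltbp1, which encodes a protein that binds latent TGF-β, held none. Together the 11 groups covered 192 of the 557 long genes, of which 125 (65.1%) held 247 peaks, 1.78 per Mb (1.57 to 2.02). That density was near the 1.87 of the whole class.

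Most of the peaks were clear of the limits of the rule. The peak nearest to a gene end was in Arhgap24, at 3100 bp with a pileup of 3, and the nearest one outside the limit was in Ryr2, at 2636 bp with a pileup of 3. In all, 42 of the 602 peaks overlapping long genes were within 3 kb of a gene end and were left out. The shortest gene included, Zfp423 (300244 bp), and the longest left out, Akap13 (299084 bp), had no peaks.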

How the data were processed

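The data were 1 MACS2 list of narrow peaks from Cut&Tag on mouse hippocampus. Per the labels, the submitters' processing notes name BWA, MACS2, HOMER and the build mm10. The authors kept uniquely mapped reads and used a MACS2 cutoff of 0.05. The control of the peak calling and the handling of duplicates are not given in the sources used here. The values the authors deposited are, for every peak, its score, its fold enrichment, its −log10 p and its −log10 q, as MACS2 computes them from p-values and q-values. The list gives no library totals.

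Peak positions in the deposited list were set against RefSeq genes of GRCm38.p6 (49943 genes, 21887 protein coding). The pileup was recovered from the fold enrichment, as (pileup + 1) / (background + 1), and from the Poisson p-value. Eligible interior is the sequence of protein-coding genes more than 3 kb from each gene end. Shares were given Clopper-Pearson intervals, densities exact Poisson intervals, ratios exact conditional intervals and differences of shares Newcombe intervals, at 95%. Each gene was tested with an exact two-sided Poisson test and Benjamini-Hochberg adjustment over 10755 genes. The steps were tested on simulated data.

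The members, the 11 gene lists (407 genes, all matched) and the tests were chosen with earlier results of these data known. Named were the 15 long genes with most peaks, the 8 densest with at least 3, the genes of the 10 highest −log10 q, the 10 longest, and up to 4 members of each list with most peaks and the longest with none. The result for 1 gene is not reported here. Alternatives were stricter thresholds on q, fold and pileup, other windows and length limits, summits in place of intervals, and leaving out chromosomes. Apart from the RefSeq windows around transcript starts, no genome sequence was used here, so the planned GC content and motifs of peaks were not computed. Python 3.11.15, NumPy 2.4.6, pandas 2.3.3, SciPy 1.17.1 and Matplotlib 3.10.9 were used.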

Additional observations from a re-analysis of the deposited data

How the results depend on the processing

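No paired analysis was possible because there was 1 library per antibody and a single peak list. The number of peaks in long genes was 560, and followed the threshold: 200 had a q-value up to 0.01, 111 one up to 0.001, 220 a pileup of 3 or more, 81 a fold enrichment of 5 or more, and 295 were in genes of at least 500 kb. The number of genes with a peak was 328, and 161, 96, 172, 72 and 152 under the same settings, and was 512 with genes of at least 200 kb. The other 8 settings gave 499 to 808 peaks, and 7 gave 304 to 338 genes. The density ratio of long to shorter genes stayed between 0.593 and 0.867 over 15 alternatives, with 0.867 for whole gene lengths. The exact per-gene Poisson test called 0 genes in all 9 alternatives, with 94 to 148 genes at an unadjusted p of at most 0.05. The difference in the share with a q-value of at most 0.01 was -5.20 percentage points (-9.44 to -0.886) with genes of at least 200 kb and -9.24 (-14.7 to -3.31) with genes of at least 500 kb, and the cause was not tested. The ratio near internal starts was 3.45 with 1 peak fewer, with an interval from 0.709 to 10.2. The planned sequence composition of peaks was not run.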
